A study of Rattus norvegicus with 36 samples.

Results

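Cyclin-dependent kinase 5 and the collapsin response mediator proteins were followed in rat dorsal root ganglia after spinal nerve injury through 6 genes: Cdk5, its activator gene Cdk5r1, and the response mediator genes Dpysl2, Dpysl3, Dpysl4 and Crmp1. The members were all probe sets on 3 chip types that the platform annotation assigns to 1 of these symbols and to no other gene, which gave 11 of 26379 probe sets and 6 of 10970 genes with a probe set of their own. Cdk5 had 1 of them, Cdk5r1 2, Dpysl2 3, Dpysl3 3, Dpysl4 1 and Crmp1 1. The genes were chosen with earlier results of these data known: Cdk5 and Dpysl4 were among the strongly lower probe sets in injured L5 ganglia against sham ganglia. Their differences in that comparison, and in any other that uses the L5 pools, are therefore given as a description and not as a test. A probe set entered the fit when its mean signal reached the 40th percentile of its chip type, and 7 of the 11 did.

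RNA was measured in 6 pools of ganglia on Affymetrix RG_U34 chips A, B and C. The ganglia are the clusters of sensory nerve cell bodies beside the spinal cord, and in the injury model, spinal nerve ligation (SNL), the L5 spinal nerve is tied so that the axons of L5 neurons are interrupted while those of L4 neurons stay connected. The pools were L5 ganglia of SNL rats, the neighbouring L4 ganglia of SNL rats, and ganglia of sham-operated rats, in which L4 and L5 were collected together. Each was taken 28 and 50 days after surgery, with 30 rats in a pool wherever a label counts them, and hybridised to 2 arrays of each chip type, 36 arrays in all. The labels name no strain, sex or age. The titles call the L4 and L5 arrays technical replicates and the sham arrays only replicates. All were treated as 2 arrays of 1 pool of RNA, with no biological replication. The pools of 28 and 50 days therefore serve as the 2 replicates of a condition. The p-values, SEs and intervals rest on the spread between those pools after a common day effect. The fit draws that spread towards the spread of probe sets of similar brightness, so it is not that of the probe set alone. No level is compared between different probe sets, because brightness depends on the probes.

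Cdk5 is a kinase of postmitotic neurons that is active only when bound to a non-cyclin partner such as p35, the product of Cdk5r1, and that phosphorylates cytoskeletal and synaptic proteins and guides axon growth. The response mediator proteins, encoded by Dpysl2 (CRMP2), Dpysl3 (CRMP4), Dpysl4 (CRMP3) and Crmp1 (CRMP1), are cytosolic phosphoproteins of growing axons that carry the growth cone response to semaphorin 3A and bind tubulin. Cdk5 phosphorylates several of them, and CRMP2 also interacts with voltage-gated calcium channels in sensory neurons.

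The promoters of Cdk5 and Dpysl4 are shown because these were the members with lower signal in the L5 pools. Both are 300-base windows from RefSeq on the build GRCr8, 250 bases before to 50 bases after the annotated start, at chr4:11646874-11647173 (plus strand) for Cdk5 and chr1:203312463-203312762 (plus strand) for Dpysl4. Capitals mark the GC box letters GGGCGG, read on either strand.
Cdk5: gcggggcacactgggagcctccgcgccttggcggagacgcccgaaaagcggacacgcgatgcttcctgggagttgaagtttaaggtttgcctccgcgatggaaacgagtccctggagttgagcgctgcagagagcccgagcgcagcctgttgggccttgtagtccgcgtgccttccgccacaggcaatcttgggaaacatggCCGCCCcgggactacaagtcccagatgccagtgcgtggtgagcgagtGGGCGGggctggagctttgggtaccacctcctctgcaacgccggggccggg
Dpysl4: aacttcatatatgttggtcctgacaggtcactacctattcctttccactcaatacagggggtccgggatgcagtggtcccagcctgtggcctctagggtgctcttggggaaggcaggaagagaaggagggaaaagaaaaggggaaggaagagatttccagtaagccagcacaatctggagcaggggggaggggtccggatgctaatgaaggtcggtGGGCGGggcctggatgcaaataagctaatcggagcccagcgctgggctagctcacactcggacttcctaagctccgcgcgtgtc
The Cdk5 window held 2 GC boxes and the Dpysl4 window 1. GC boxes were found in 33.1% of the 33469 RefSeq promoters of that length. The GC content was 65.3% for Cdk5 and 56.3% for Dpysl4, against a median of 51.7% over all promoters. The AP-1 letters TGANTCA (7.33% of promoters), the CRE letters TGACGTCA (1.83%) and the E-box letters CACGTG (6.42%), searched on both strands, were in neither window. The same letters were also not in the windows found for Cdk5r1, Dpysl3 (2 windows) and Crmp1, all of which held GC boxes. These matches describe letters only.

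Cdk5 signal was low in both injured L5 pools and in no other pool. Its probe set, L02121_at on chip A, read 109.1 and 105.7 on the arrays of the sham pool of 28 days and 120.9 and 165.6 on those of the sham pool of 50 days. The L4 pools read 119.0 and 134.2 at 28 days and 188.9 and 149.6 at 50 days. The L5 pools read 22.7 and 18.6 at 28 days and 34.5 and 55.5 at 50 days. All L5 arrays lay between 18.6 and 55.5 and all sham and L4 arrays between 105.7 and 188.9, so the groups did not overlap. The probe set passed the chip A filter of 39.3 on its mean signal of 102, which the sham and L4 arrays carried. Its L5 readings of 22.7, 18.6 and 34.5 lay under that level. On the log2(signal + pseudocount) scale, which understates folds of dim probe sets, Cdk5 was lower in L5 than in sham by 3.13-fold (log2 difference -1.64 ± 0.28, SE, n = 2 pools per condition). Against L4 it was lower by 3.64-fold (-1.87 ± 0.28). Ranked by log2 difference among the 15721 tested probe sets, these were the 13th and the 4th most negative values. Both comparisons share the L5 pools.

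The lower Cdk5 signal was present at both times. The log2 difference between L5 and the sham pool of the same day was -1.85 at 28 days and -1.44 at 50 days, and against L4 it was -2.06 and -1.67. Each of these values compares 1 pool with 1 pool and carries no test. Within L5 the 50-day pool lay above the 28-day pool, and their arrays did not overlap. The day term over all conditions was 0.50 ± 0.23 in log2, which did not pass (limma, adjusted p = 0.270). Ordered by mean, the pools ran from L4 at 50 days through sham at 50 days, L4 at 28 days and sham at 28 days to L5 at 50 and then 28 days. The first 3 of these pools overlapped their neighbours, and the last 3 steps of the order did not.

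Dpysl4, the CRMP3 gene, had the other low L5 signal, with less agreement between arrays. Its probe set, U52103_at on chip A, read 280.3 and 258.8 in sham at 28 days and 259.5 and 285.2 in sham at 50 days. The L4 pools read 257.1 and 127.3 at 28 days and 236.4 and 258.2 at 50 days. The L5 pools read 105.8 and 15.4 at 28 days and 49.1 and 128.9 at 50 days. Every L5 array lay below every sham array, but the highest L5 array (128.9) lay just above the lowest L4 array (127.3). The share of all tested probe sets with such a gap from sham is not given here, so nothing is read from it. The 2 arrays of the L5 pool of 28 days, which hold the same RNA, differed by 6.87-fold, whereas no pool of Cdk5 differed by more than 1.61-fold between its arrays. The L5 reading of 15.4 lay under the chip A filter of 39.3, which the probe set passed on its mean signal of 188.

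Dpysl4 was lower in L5 than in sham by 3.85-fold (log2 difference -1.95 ± 0.25, SE, n = 2 pools per condition), the 6th most negative of all tested values. Against L4 it was lower by 3.05-fold (-1.61 ± 0.25), the 19th. The same-day differences from sham were -2.29 at 28 days and -1.60 at 50 days, and those from L4 were -1.75 and -1.47. The 2 genes followed each other across pools, with Pearson's r = 0.960 between Cdk5 and Dpysl4 over the 6 pool means, a description that the shared low L5 pools set. Cdk5 and Dpysl4 each rest on 1 probe set, so no second probe set of either gene can be compared.

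**Figure D1:**
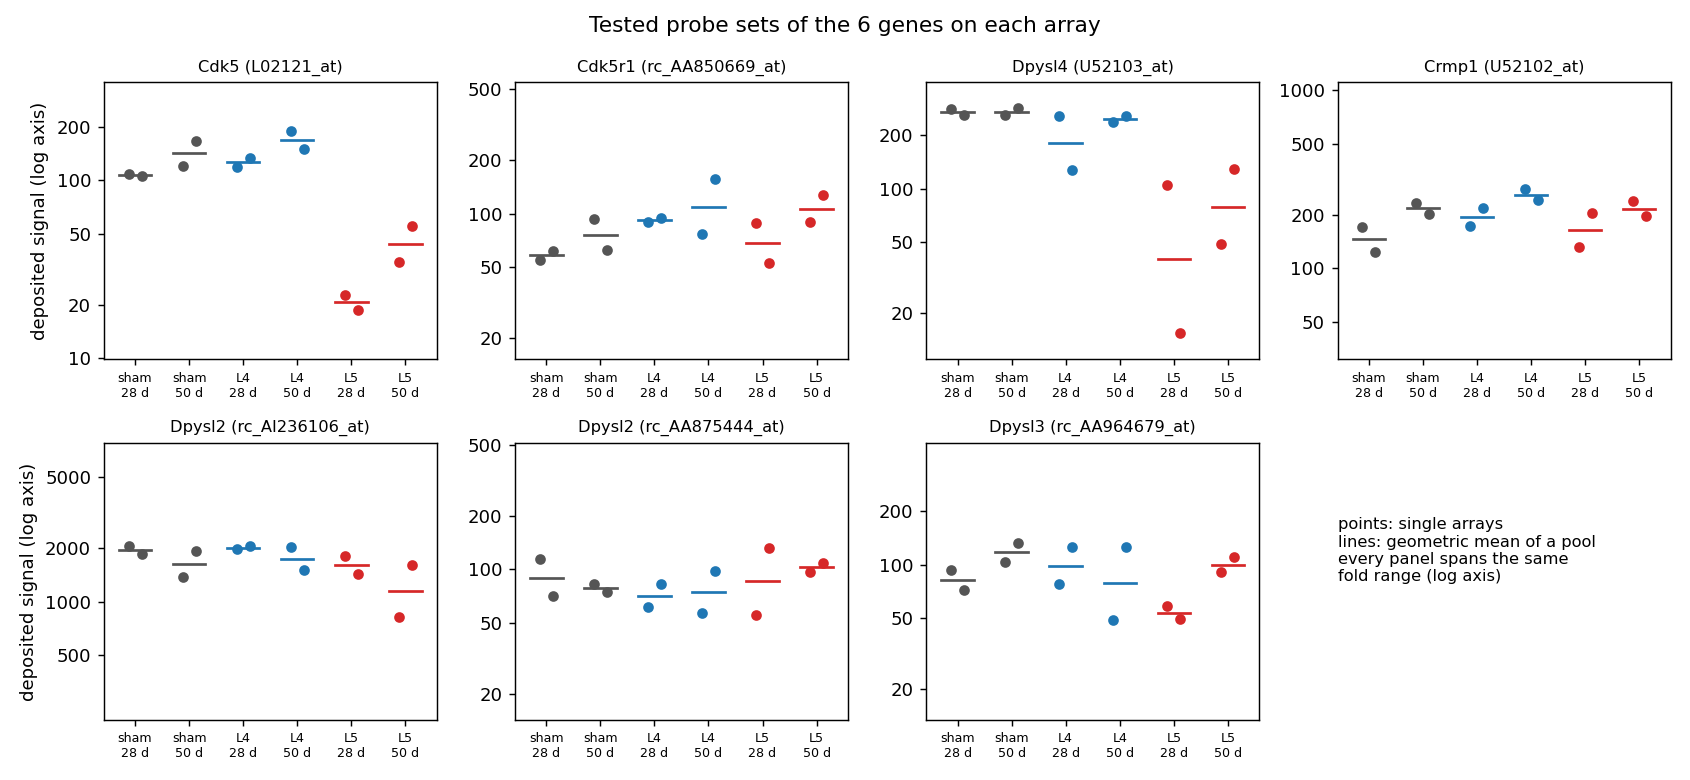
Deposited signal (log axis) of the 7 tested probe sets on each array by pool, with points for single arrays, lines for the geometric mean of a pool, and the same fold range in every panel. The 4 L5 points of Cdk5 lie between 18.6 and 55.5, below all others, and those of Dpysl4 spread from 15.4 to 128.9.

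By the call rule (limma, Benjamini-Hochberg adjusted p under 0.05 over all tested probe sets), 2 of the 7 tested member probe sets, Cdk5 and Dpysl4, were lower in L5 than in sham, where 0.534% of all tested probe sets were called lower. None was higher, against 0.229% of all. In L5 minus L4 the same 2 of 7 were called lower and none higher, against 0.999% and 0.261% of all, except that scaling by the hybridisation control spots, which puts the median of all probe sets at -0.64 there, called 5 of 7 lower beside 42.8% of all probe sets. Since the genes were chosen on these differences, nothing is read from the counts. For Cdk5 alone all 4 L5 arrays lay below all 8 others, a pattern that 4.96% of all tested probe sets showed. The L5 minus sham calls depended on the sham pools: without the sham pool of 28 days neither gene was called, and without that of 50 days only Dpysl4 was. Their differences were then -1.54 and -1.75 for Cdk5, against -1.64 with all pools. For Dpysl4 they were -1.67 and -2.22, against -1.95. The L5 minus L4 calls of both held with each pool left out in turn. The calls of both genes in both comparisons were lost when either array of each pool was used alone and without the intensity trend. Without the filter on dim probe sets only the Dpysl4 call in L5 minus sham was left.

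Cdk5r1, which encodes the activator p35, had L5 signals that overlapped both other conditions. Its tested probe set, rc_AA850669_at on chip A, read 54.7 and 62.0 in sham at 28 days and 92.7 and 62.6 at 50 days. The L4 arrays read 90.1 and 94.3 at 28 days and 76.3 and 157.1 at 50 days. The L5 arrays read 88.4 and 53.0 at 28 days and 89.3 and 126.8 at 50 days. The 3 conditions overlapped, and the L4 pool of 50 days spread by 2.06-fold between its arrays. The L5 minus L4 difference was -0.20 ± 0.28 (adjusted p = 0.723), with a 95% interval from -0.82 to 0.41, so a moderate change either way cannot be told from none. The L5 minus sham difference was 0.31 ± 0.28 and turned to -0.13 with hybridisation control scaling. The second Cdk5r1 probe set, U50707_at, was too dim for the fit, with 5.1 to 18.4 over all 12 arrays.

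Crmp1, which encodes the family member CRMP1, had overlapping signals in all 3 conditions. Its probe set, U52102_at on chip A, read 171.5 and 122.5 in sham at 28 days and 232.5 and 202.1 at 50 days. The L4 arrays read 173.3 and 216.9 at 28 days and 279.2 and 240.6 at 50 days. The L5 arrays read 131.8 and 205.5 at 28 days and 238.9 and 196.0 at 50 days. L5 lay within the sham and L4 range, and in every condition the pool of 50 days had the higher mean. The L5 minus L4 difference was -0.23 ± 0.21 (adjusted p = 0.566, 95% interval -0.70 to 0.23) and the L5 minus sham difference 0.08 ± 0.21. The latter turned to -0.14 with median centring, -0.39 with hybridisation control scaling and -0.16 with array 1 alone. The day difference of 0.43 ± 0.17 did not pass (adjusted p = 0.216).

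Dpysl2, whose product CRMP2 binds tubulin dimers, was measured by 2 tested probe sets that differed in sign. The probe set rc_AI236106_at on chip C read 2051.8 and 1862.1 in sham at 28 days and 1370.7 and 1927 at 50 days. Its L4 arrays read 1985 and 2046.7 at 28 days and 2027.6 and 1503.7 at 50 days. Its L5 arrays read 1814 and 1425.3 at 28 days and 823.8 and 1609.2 at 50 days. The lowest array was an L5 array, but the conditions overlapped. The L5 minus L4 difference was -0.46 ± 0.18 with a 95% interval from -0.86 to -0.06, unadjusted, and did not pass after adjustment over all probe sets (adjusted p = 0.205). It was -0.32 at 28 days and -0.59 at 50 days.

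The second tested Dpysl2 probe set, rc_AA875444_at on chip A, went the other way. It read 71.0 to 113.6 in sham, 57.1 to 97.3 in L4 and 55.2 to 132.1 in L5. The L5 minus L4 difference was 0.32 ± 0.29 (adjusted p = 0.559, 95% interval -0.30 to 0.94), and it turned to -0.25 when arrays were scaled to the hybridisation controls. The annotation does not say which part or form of the transcript each probe set reads. The third, Z46882cds_at, was too dim for the fit: it read 7.3 to 19.6 in sham, 30.0 to 43.7 in L4 and 4.9 to 42.8 in L5, and its 2 arrays of the L5 pool of 50 days differed by 4.41-fold.

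Dpysl3, the CRMP4 gene, had overlapping signals in all 3 conditions. Its tested probe set, rc_AA964679_at on chip B, read 93.6 and 71.9 in sham at 28 days and 104.5 and 132.5 at 50 days, where 1 label of the first of these arrays gives another day than its title. The L4 arrays read 77.9 and 125.4 at 28 days and 49.2 and 126.0 at 50 days. The L5 arrays read 58.7 and 49.6 at 28 days and 91.3 and 110.7 at 50 days. Both L5 arrays of 28 days lay below all sham arrays, and those of 50 days did not. The L5 minus L4 difference was -0.22 ± 0.28 (adjusted p = 0.703, 95% interval -0.85 to 0.41), with -0.71 at 28 days and 0.27 at 50 days. This value turned to 0.20 without the L4 pool of 28 days and to 0.10 without the L5 pool of 28 days. The L5 minus sham difference was -0.34 ± 0.28, with -0.48 at 28 days and -0.20 at 50 days, and shrank to -0.022 without the L5 pool of 28 days. The other Dpysl3 probe sets, U52104_at with 2.5 to 31.6 and rc_AI059953_at with 17.6 to 71.3, were too dim for the fit.

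In all, 4 probe sets lay under the filter. Their mean signals were 12.2 for the second Cdk5r1 set, 21.6 for the third Dpysl2 set, 12.7 for U52104_at and 35.9 for rc_AI059953_at, where the filter stood at 39.3 on chip A and 53.6 on chip B. None of them entered a count or an interval, and a dim probe set was not called absent.

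In the neighbouring L4 ganglia no tested member passed against sham (0 of 7, adjusted p = 0.9995 for each), and no probe set of the whole table did (0%, with 426 at an unadjusted p under 0.05 by the same limma fit). The differences of the members ran from -0.33 ± 0.25 for Dpysl4 to 0.51 ± 0.28 for Cdk5r1, and Cdk5 had 0.22 ± 0.28. These values show no difference past the spread used in the fit and do not show that the ganglia were alike. For Dpysl4 the highest L4 array (258.2) was just below the lowest sham array (258.8) in deposited signal, and the fit did not call it. How many of all tested probe sets show such a gap was not counted, so nothing is read from it. None of the 7 passed for the day either, where 0.286% of all tested probe sets did.

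**Figure D2:**
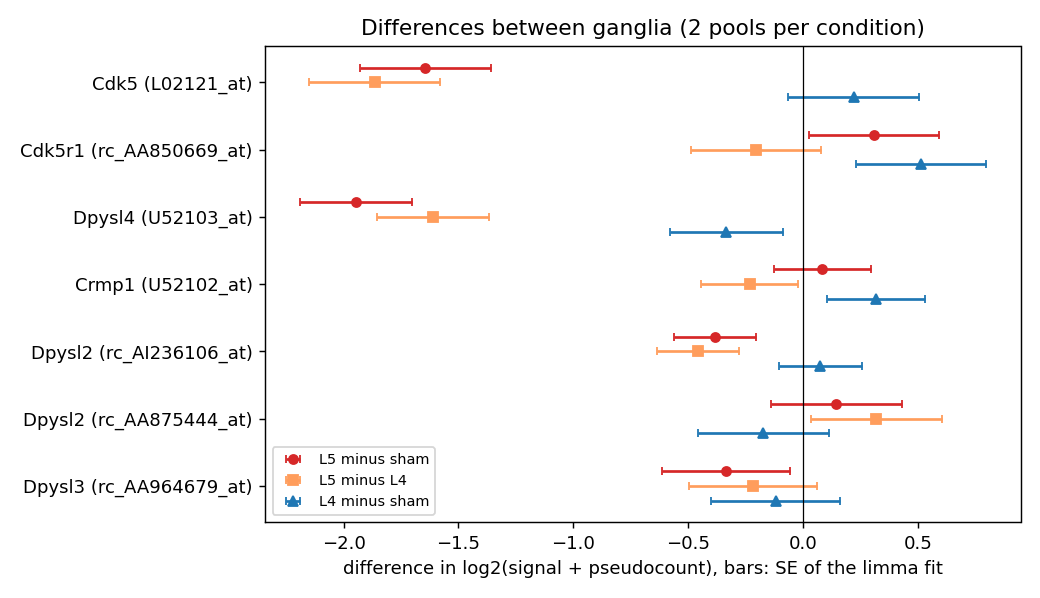
Log2 differences between conditions for the 7 tested probe sets, with bars for the SE of the limma fit over 2 pools per condition. Cdk5 and Dpysl4 lie at -1.61 or lower in both L5 comparisons, and the other probe sets lie between -0.46 and 0.32 there.

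Set against its paralogues, Dpysl4 had the larger L5 minus L4 difference in each of 3 pairs. The gap between its log2 difference and that of Dpysl2 (rc_AI236106_at) was -1.15, with -1.43 at 28 days and -0.88 at 50 days. Against Dpysl3 the gap was -1.39, with -1.04 and -1.74, and against Crmp1 it was -1.38, with -1.53 and -1.23. The gap between Cdk5 and its activator Cdk5r1 was -1.66, with -1.70 and -1.63. All 4 gaps had the same sign at both days. The 4 pools of such a comparison can be rearranged in 6 ways, so an exact two-sided permutation test cannot go below p = 0.333, the value each of the 4 pairs had (0.333 adjusted over the 4). The pairs were also chosen with these differences known, so the gaps are a description. They kept their sign under every scaling, filter, pseudocount and left-out pool that was tried.

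**Figure D3:**
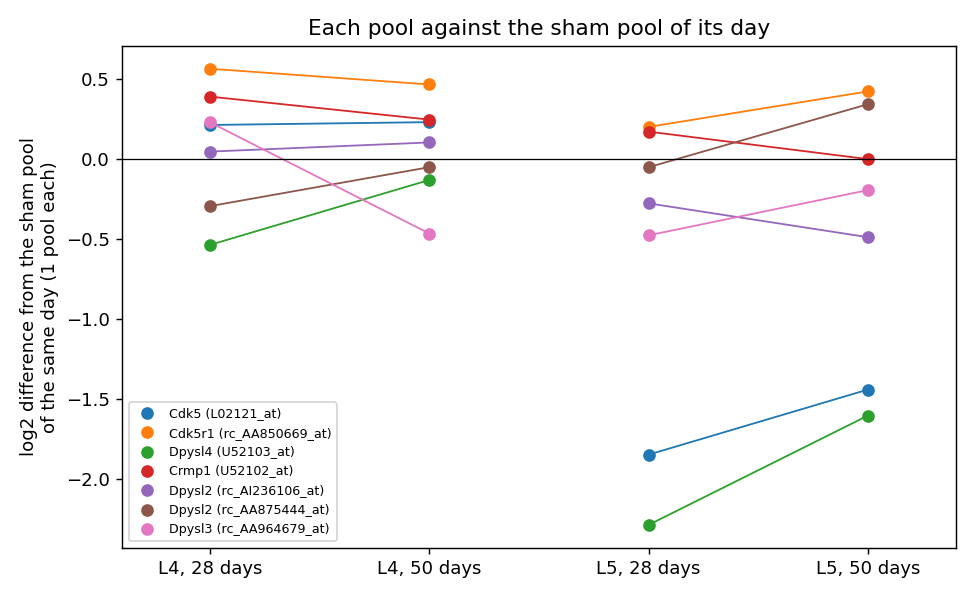
Log2 difference of each L4 and L5 pool from the sham pool of the same day, 1 pool each, for the 7 tested probe sets, with lines joining the days. Cdk5 (-1.85 and -1.44) and Dpysl4 (-2.29 and -1.60) lie apart in L5 at both days, and in L4 the values range from -0.54 to 0.56.

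Other genes with a similar profile were named by Pearson's r over the 6 pool means, among 8269 genes compared, with no test. For Cdk5 the 4 highest were Csdc2 (0.995), Lrp11 (0.995), Map7 (0.994) and Elavl4 (0.994). Elavl4 encodes a neuronal RNA-binding protein and Map7 a microtubule-associated protein. For Dpysl4 they were Scn10a (0.995), which encodes the voltage-gated sodium channel Nav1.8 of small sensory neurons, Ube2m (0.994), C12h12orf76 (0.994) and Pank1 (0.993). A value over 0.95 was reached by 170 genes for Cdk5 and 137 for Dpysl4, since a gene whose L5 pools lie far below its other pools tends to score high over 6 points. Their L5 minus L4 differences were smaller than those of the genes they resemble, from -0.52 (Elavl4) to -1.21 (Csdc2).

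The regulators of Cdk5 showed no called change. The list held 10 genes, of which 8 were tested: inhibitors and binding proteins such as Cdk5rap3, the calpains that cut p35 to the more stable p25, and calpastatin, their inhibitor. Their median L5 minus L4 difference was -0.13, against 0.04 over all tested probe sets, and 5 of 8 were below 0. Gstp1, a transferase described as a Cdk5 inhibitor, read 306 to 482 in sham, 420 to 524 in L4 and 329 to 458 in L5 (L5 minus L4 -0.35 ± 0.19, adjusted p = 0.324). Capn2, the large subunit of m-calpain, read 662 to 835, 670 to 791 and 539 to 708 (-0.25 ± 0.17, adjusted p = 0.441). Both overlapped between L5 and the other conditions. Cdk5r2, which encodes the second activator p39, is not among the named probe sets here.

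Substrates of Cdk5, from neurofilaments and tau to synaptic proteins, had a median difference near 0. Each gene is given by its brightest tested probe set. Some genes had other tested probe sets of the opposite sign, so the split around 0 can depend on that choice. Of 28 listed genes 26 were tested, with a median L5 minus L4 of -0.02 and 13 below 0. In that comparison 1 was called lower and 0 higher, against 0.999% and 0.261% of all tested probe sets. In L5 minus sham 0 were called. The called gene was Syn1, which encodes the synaptic vesicle protein synapsin I: it read 1179 to 1349 in sham, 1313 to 1865 in L4 and 715 to 1079 in L5. All its L5 arrays lay below all others, a pattern that 4.96% of all tested probe sets showed. Its L5 minus sham difference was -0.58 ± 0.17 and did not pass (limma, adjusted p = 0.142). The L5 minus L4 difference was -0.90 ± 0.17 and passed (adjusted p = 0.0466). That call was lost without any 1 pool other than the L5 pool of 50 days, with adjusted p from 0.0246 to 0.134 over the 6, while the difference stayed between -1.01 and -0.79. In all, 11 of 19 alternatives lost the call, among them quantile normalization (-0.77, adjusted p = 0.0986), no filter (0.0875), no trend (0.147), either array alone (0.224 and 0.115) and leaving out the array with conflicting labels (0.0582). Dnm1, which encodes dynamin 1 of synaptic vesicle endocytosis, read 990 to 1165, 971 to 1408 and 524 to 749 (-0.77 ± 0.19, adjusted p = 0.0730). Its L5 arrays also lay below all others, and it did not pass.

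Of the genes of semaphorin 3A and response mediator signalling, 24 of 32 listed were tested and 0 were called in either L5 comparison. The list takes in the receptors (neuropilins and plexins), the kinases of the response mediator proteins (Gsk3a, Gsk3b, Fyn, Rock2), the small GTPases and their effectors, and subunits of kinesin-1, a motor to which CRMP2 binds. The median difference was -0.17 in L5 minus sham and -0.21 in L5 minus L4, against 0.04 over all tested probe sets in each, and 18 of 24 were below 0 in each. Cfl1, which encodes the actin-severing protein cofilin 1, read 604 to 802 in sham, 740 to 867 in L4 and 340 to 746 in L5 (L5 minus L4 -0.84 ± 0.19, adjusted p = 0.0625). Kif5a, a neuronal kinesin heavy chain, read 1426 to 1951, 1706 to 2291 and 1006 to 1259 (-0.76 ± 0.16, adjusted p = 0.0673). Kif5a arrays of L5 lay below all others, a pattern that 4.96% of all tested probe sets showed, and those of Cfl1 overlapped both. Nrp1, which encodes the semaphorin 3A receptor neuropilin 1, was tested and did not pass (-0.34 ± 0.24, adjusted p = 0.454). Only 1 of the 2 tested Nrp1 probe sets had a difference below 0. The ligand gene Sema3a and Nrp2, which encodes neuropilin 2, were under the filter. Of the closest relatives of the family Dpysl5 had no named probe set and Dpys lay under the filter.

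Other cyclin-dependent kinases had no called member: 7 of 11 listed were tested, the median was 0.11 in L5 minus L4, 3 were below 0 and 0 were called. Cdk14, a membrane-associated kinase of the same subfamily as Cdk16, read 1464 to 1525 in sham, 1388 to 1708 in L4 and 810 to 1334 in L5 (-0.55 ± 0.16, adjusted p = 0.124). Its L5 arrays lay below all others, a pattern that 4.96% of all tested probe sets showed. Only 1 of the 2 tested Cdk14 probe sets had a difference below 0. Cdk16 read 1923 to 2846, 864 to 2392 and 1164 to 4202 (1.05 ± 0.34, adjusted p = 0.154), with 0.16 at 28 days and 1.95 at 50 days. These lists were drawn up with results of these data known, and their medians describe the listed genes only.

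**Figure D4:**
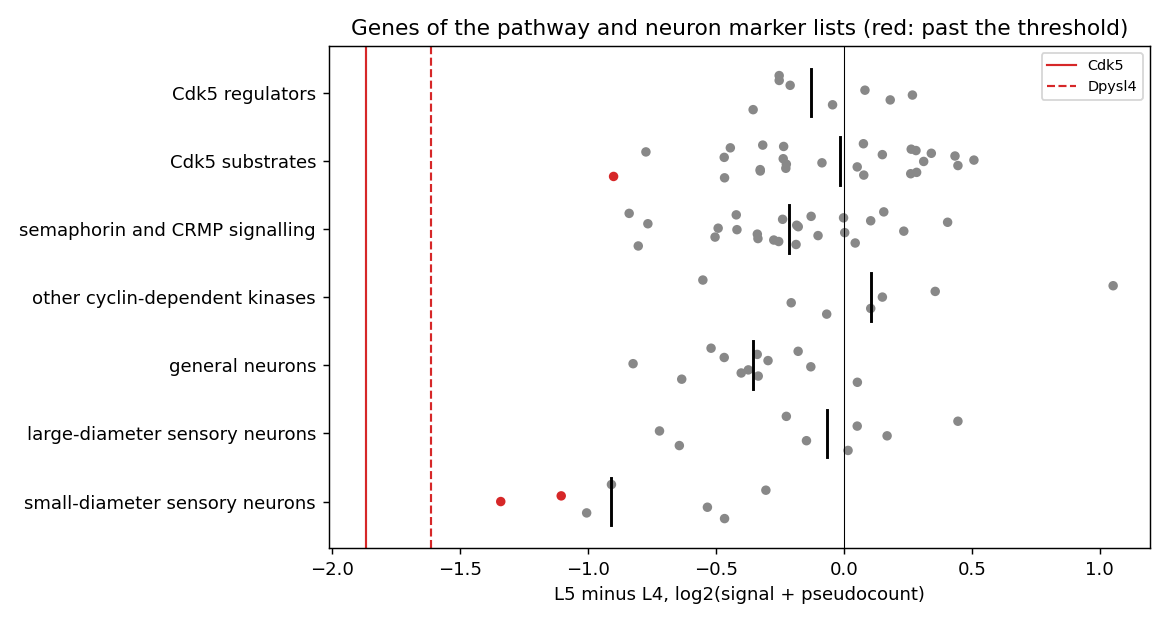
L5 minus L4 log2 difference of each tested gene (points) in the pathway and neuron marker lists, with list medians as black bars, called genes in red, and vertical lines at Cdk5 (-1.87) and Dpysl4 (-1.61). No listed gene lies as low as Dpysl4.

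Markers of cell types moved between the same pools, and their part in the low Cdk5 and Dpysl4 signal was not tested. In bulk tissue, fewer cells of a type and less RNA per cell cannot be told apart. All 12 general neuron markers were tested, with a median L5 minus L4 of -0.35 and 11 of 12 below 0, 0 called, and summed signals of 37527 to 46179 in the sham pools, 39858 to 42376 in L4 and 32850 to 33756 in L5. Markers of small-diameter sensory neurons were further down: 7 of 8 were tested, the median was -0.91, all 7 were below 0, and the sums were 6771 to 7202 in sham, 7165 to 7240 in L4 and 3038 to 4704 in L5. Scn11a (-1.34 ± 0.19, adjusted p = 0.0202) and Scn10a (-1.10 ± 0.22, adjusted p = 0.0396), both sodium channels of these neurons, fell by limma. The Scn10a call was lost in 6 of 19 alternatives: without the L4 pool of 28 days (adjusted p = 0.0543), with quantile normalization (0.0572), without the filter (0.0701), without the trend (0.167) and with either array alone (0.263 and 0.124). The Scn11a call was lost in 3 of 19, without the trend (adjusted p = 0.145) and with either array alone (0.104 and 0.115). Markers of large-diameter neurons (8 of 8 tested) had a median of -0.06 and 4 of 8 below 0. By day, the median L5 minus sham difference of small-diameter markers was -1.21 at 28 days and -0.44 at 50 days. In the same order it was -0.50 and 0.06 for large-diameter markers and -0.32 and -0.36 for general neuron markers.

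Markers of other cells were read in the same pools, and their part in the results was likewise not tested. The 9 tested of 10 macrophage markers had a median L5 minus L4 of 0.87, none below 0 and 0 called, with sums of 1262 to 1287 in sham, 1114 to 1219 in L4 and 1520 to 3263 in L5, and Itgam was under the filter. Skeletal muscle markers (8 of 9 tested) had a median of 0.55 with 1 below 0 and 0 called, and sums of 747 to 1636 in sham, 1393 to 1612 in L4 and 1626 to 3136 in L5. Both lists were further above sham in the L5 pool of 28 days than in that of 50 days: the median L5 minus sham difference was 1.17 at 28 days and 0.15 at 50 days for macrophage markers, and 1.98 and 0.12 for muscle markers. For satellite glia (5 of 6 tested) the median was 0.04 and for Schwann cells (7 of 9) it was 0.16, with 0 called in either. Fat (2 of 5 tested), vessel (4 of 6) and blood cell markers (4 of 5) had 0 called and medians of 0.31, 0.04 and -0.02. The 3′ to 5′ signal ratio of the Gapdh control probe sets on chip A, a measure of RNA integrity and labelling, was 6.18 to 8.54 in sham, 4.89 to 5.97 in L4 and 3.80 to 5.08 in L5. On that chip sham lay above both, and L4 and L5 overlapped. In the same order it was 5.10 to 8.30, 2.90 to 5.87 and 3.47 to 4.68 on chip B. On chip C it was 5.66 to 11.9, 6.10 to 6.88 and 2.99 to 5.85. Median signals on chip A were 50.6 to 72.8, and Pearson's r between the 2 arrays of a pool was 0.880 to 0.958.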

How the data were processed

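The deposited values are MAS5 intensity signals on a linear scale, per the submitters' processing notes (version not given in the sources used here). The authors had brought arrays to a common trimmed mean (without the highest and lowest 2%). From these intensity values, each array was scaled to that mean within its chip type, control probe sets were left out, and log2(signal + pseudocount) was taken with the 20th percentile as the pseudocount (12.8, 17.7 and 20.2 on chips A, B and C). Probe sets under the 40th percentile of mean signal were left out, which left 15721 tested. The 2 arrays of a pool were averaged. limma 3.58.1 in R 4.3.3 was fitted with condition and day (lmFit, eBayes with intensity trend, 2 residual degrees of freedom) with Benjamini-Hochberg adjustment over the 3 chip types together at a threshold of 0.05. Intervals are 95% and unadjusted. Gene symbols came from the platform annotation. The number of arrays limits the precision.

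The members and lists were chosen with earlier results of these data known. Named were all member probe sets, up to 4 called genes of a pathway list (filled to 2 by lowest p in L5 minus L4), marker genes that were called, and the 4 genes most like Cdk5 and Dpysl4, each by its brightest tested probe set. Other genes named give a role or a filter result only. Alternatives were other pseudocounts, filters and scalings, no trend, single arrays, all 12 arrays with the pool as a block, and each pool left out. For 1 sham array of chip B the title gives 28 days and the description 50 days, so the title was used and a fit without it was run. The script was tested on simulated data.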

Additional observations from a re-analysis of the deposited data

How the results depend on the processing

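The number of called probe sets depended on the processing, where the full analysis called 120 in L5 minus sham, 198 in L5 minus L4, 0 in L4 minus sham and 45 for the day. In that order of comparisons the counts were 31, 19, 0 and 23 without a filter, 43, 59, 0 and 18 with quantile normalization, 536, 819, 0 and 140 with median centring, 2951, 6750, 6 and 296 with hybridisation control scaling, 3, 0, 0 and 0 without the intensity trend, 0, 0, 0 and 2 with array 1 alone, and 2, 0, 0 and 5 with array 2 alone. Lower and higher calls in L5 minus L4 were 157 and 41, against 757 and 62 with median centring, 6729 and 21 with hybridisation control scaling and 46 and 13 with quantile normalization, and in L5 minus sham 84 and 36, against 486 and 50, 2915 and 36, and 26 and 17. Hybridisation control scaling put the median difference over all tested probe sets at -0.44 in L5 minus sham, -0.64 in L5 minus L4 and 0.20 in L4 minus sham. Leaving out each pool gave 12 to 620 calls in L5 minus sham, 98 to 766 in L5 minus L4, 0 to 10 in L4 minus sham and 69 to 423 for the day. With 12 arrays and the pool as a random block, where the arrays of a pool are not independent, the counts were 1116, 1387, 1 and 1027, and with the array number added as a replicate block 975, 1186, 0 and 796. Arrays that share a number did not deviate together (r of -0.10 to 0.11), so the number pairs nothing, and the replicate block left Cdk5 and Dpysl4 called in both comparisons. Member probe sets called lower in L5 minus sham were 2, but 1 without a filter, 0 without the trend, 0 with either array alone and 0 to 2 with a pool left out. In L5 minus L4 they were 2, but 0 without a filter, without the trend or with either array alone, 5 with hybridisation control scaling, where Dpysl2 (-1.24), Dpysl3 (-0.87) and Crmp1 (-0.85) passed, and 2 with every pool left out. Cdk5 lay between -2.38 and -1.67 and Dpysl4 between -2.16 and -1.37 in L5 minus L4 over all alternatives. In L5 minus sham the sign turned for Cdk5r1, Crmp1 and Dpysl2 rc_AA875444_at with hybridisation control scaling (-0.13, -0.39 and -0.30). It also turned for Crmp1 with median centring (-0.14) and array 1 alone (-0.16). For Dpysl2 rc_AA875444_at, with 0.14 in the full analysis, it also turned with median centring (-0.064) and without the sham pool of 50 days (-0.015). The same probe set had -0.35 with array 1 alone and 0.63 with array 2 alone. Signs turned in L5 minus L4 for Cdk5r1 (0.086 with array 1 alone), Dpysl2 rc_AA875444_at (-0.25 with hybridisation control scaling) and Dpysl3 (0.19 with array 1 alone, and from -0.63 to 0.20 with a pool left out). The causes were not tested. Leaving out the 1 sham array with conflicting labels changed no member call. That array is on chip B and holds no probe set of Cdk5 or Dpysl4, and no fit with its other day was run. Dpysl3 was not tested with the filter at the 60th percentile. With 1 pool per condition and day, no difference between days within a condition could be tested.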
